A study of Homo sapiens with 6 samples.

Results

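Connexins are the subunits of gap junctions, and this account covers 9 genes of that family and of the related pannexins in IGROV1 cells: GJA1, GJA3, GJA4, GJA5, GJB1, GJB2, GJB5, GJC1 and PANX1. They were represented by 18 of the 54613 probe sets on the array that are not controls, and by 9 of 19775 genes once 1 probe set was kept per gene. The members were taken by gene name, all their probe sets included, and 4 of them had 1 probe set. GJA1 was chosen by its measured SP minus non-SP difference on these same arrays, and the other 8 were set beside it with that comparison known, to ask whether GJA1 was low by itself and whether another family member was higher in its place. Differences of the members between the groups are therefore given as a description, without p-values.

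IGROV1 is an established human ovarian carcinoma line. Its cells were labelled with the DNA-binding dye Hoechst 33342 and sorted by flow cytometry into the side population (SP), which keeps little of the dye, and the remaining cells (non-SP). Each group had 3 samples, numbered 1 to 3, and each sample gave 1 array. Both groups went through the dye and the sort, both came from the same line in serum-containing medium, and no other agent was used. The model is 1 cell line split by a dye gate. The labels call the samples biological replicates without naming separate cultures, and p-values therefore measure the spread between these samples, some of which may be technical.

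Connexin proteins assemble into a ring called a hemichannel, and hemichannels of neighbouring cells dock to form a channel through which ions and small molecules pass. Connexin 43, the product of GJA1, is the most widely expressed member and is known in the ovary from granulosa cells and the surface epithelium. Pannexins resemble connexins in their membrane topology but are known mainly as channels to the outside of the cell, through which ATP leaves. An array measures RNA only, so nothing here reports on protein, junctions or dye transfer.

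The expression values are on the log2 scale, as deposited. The array medians lay between 5.59 and 5.64 and the third quartiles between 7.48 and 7.52. The highest of 3 negative control probe sets lay between 3.17 and 3.53 on the 6 arrays, and a value below it is treated as background. A value above it does not by itself show expression. Some markers of other cell types also cleared it on all 6 arrays. These were 3 of 5 measured for leukocytes, 3 of 5 for endothelium, 5 of 6 for fibroblasts and 2 of 2 for erythroid cells. The first principal component of all genes held 45.8% of the variance and parted the arrays into 2 sets that cut across the groups. Set A held SP 1, non-SP 1 and non-SP 3, and set B held SP 2, SP 3 and non-SP 2. The sets are not groups of the study. The ACTB 3' minus 5' signal, a measure of how evenly transcripts were copied along their length, ran from 2.02 to 2.29 in set A and from 2.46 to 2.55 in set B. Of 9 markers of ovarian carcinoma epithelium, 8 lay above the median level of all genes of 6.27, among them EPCAM (12.05 in SP and 12.20 in non-SP cells). Within that list KRT7 differed by 0.79 and CDH1 by 0.79 between SP and non-SP cells, and KRT8 by -0.71, and 0 of the 9 passed limma's adjusted p of 0.05, with 3 at an unadjusted p under 0.05. Of 18 measured markers of leukocytes, endothelium, fibroblasts and erythroid cells, 2 lay above it, and the leukocyte marker PTPRC averaged 2.96 in SP and 2.52 in non-SP cells.

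The promoters of GJA1 and PANX1 are shown, the members with the lowest and the highest difference between the groups. GJA4 was also picked for display but had no promoter sequence. Each runs from 250 bases before to 50 bases after the RefSeq start of the gene in assembly GRCh38.p14, on the plus strand, at chr6:121435396-121435695 for GJA1 and chr11:94128591-94128890 for PANX1. Capitals mark matches to the motifs described next.
GJA1 promoter: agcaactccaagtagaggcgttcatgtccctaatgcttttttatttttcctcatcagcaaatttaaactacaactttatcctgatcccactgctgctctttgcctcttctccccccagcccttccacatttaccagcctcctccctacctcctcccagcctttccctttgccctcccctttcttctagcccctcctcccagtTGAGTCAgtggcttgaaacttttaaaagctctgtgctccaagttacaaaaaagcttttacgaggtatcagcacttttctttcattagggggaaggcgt
PANX1 promoter: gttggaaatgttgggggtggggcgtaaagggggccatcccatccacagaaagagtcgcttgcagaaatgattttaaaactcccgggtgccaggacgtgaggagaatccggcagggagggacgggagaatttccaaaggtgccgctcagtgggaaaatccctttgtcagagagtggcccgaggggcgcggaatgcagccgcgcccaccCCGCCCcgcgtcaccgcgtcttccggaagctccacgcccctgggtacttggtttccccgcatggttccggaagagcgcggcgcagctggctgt

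These motifs were searched on both strands: TGAGTCA (the site of AP-1, the dimer of JUN and FOS proteins), GGGCGG (the GC box read by SP1), CAGGTG (an E-box bound by Snail factors), TATAAA and GGTGTGA (a T-box site). The GJA1 window held 1 AP-1 match, which began 48 bases before the start, and no match to the other motifs. An AP-1 match was present in 4.95% of 35116 promoters of the same length. The PANX1 window held 1 GC box, on the strand opposite to the motif as spelled, beginning 43 bases before the start, and 45.0% of promoters held at least 1. The matches did not overlap each other. The GJA1 window was 47.0% G and C and the PANX1 window 62.3%, against a median of 58.7% over all promoters. Of the 9 members, 6 had a promoter sequence to search, and among these GJA1 was the 1 with an AP-1 match. The matches describe the sequence and say nothing about binding.

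GJA1 was far lower in SP cells. Its 1 probe set (201667_at) read 5.74, 4.61 and 4.67 in SP 1, 2 and 3, against 8.94, 9.57 and 9.38 in non-SP 1, 2 and 3. The groups did not overlap, and the gap between the highest SP and the lowest non-SP array was wider than the spread within either group. The mean was 5.01 ± 0.64 in SP cells and 9.30 ± 0.32 in non-SP cells (SD, n = 3 each), a difference of -4.29 (SE 0.34, 95% interval -5.10 to -3.48). On a linear scale GJA1 was 19.6-fold lower in SP cells, with an interval of 11.2 to 34.2. No other of the 19775 genes had a lower difference, and 0.00506% of genes (1 gene) had a difference of greater size in either direction.

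The SP level of GJA1 was low but above the negative controls, which does not by itself show that SP cells held GJA1 RNA. On all 3 SP arrays the probe set stayed above the highest negative control, by at least 1.21. SP 2 and SP 3 lay in the dim range where the deposited processing compresses differences, which can understate the fold. GJA1 was also chosen by this difference and has the lowest of all genes, which can overstate it. The size of neither was tested. SP 2 and SP 3 lay below the median of their arrays, and SP 1 lay just above it. In non-SP cells all 3 values were above the third quartile. SP 1, the SP array with the highest GJA1, belongs to set A, and within that set the difference was -3.42 (1 SP and 2 non-SP arrays). Within set B it was -4.93 (2 SP and 1 non-SP arrays). Because the groups do not overlap, the shared direction follows from the values already given and adds nothing to them. A bulk array does not tell a lower level in every SP cell from a smaller share of cells with GJA1 RNA.

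**Figure D1:**
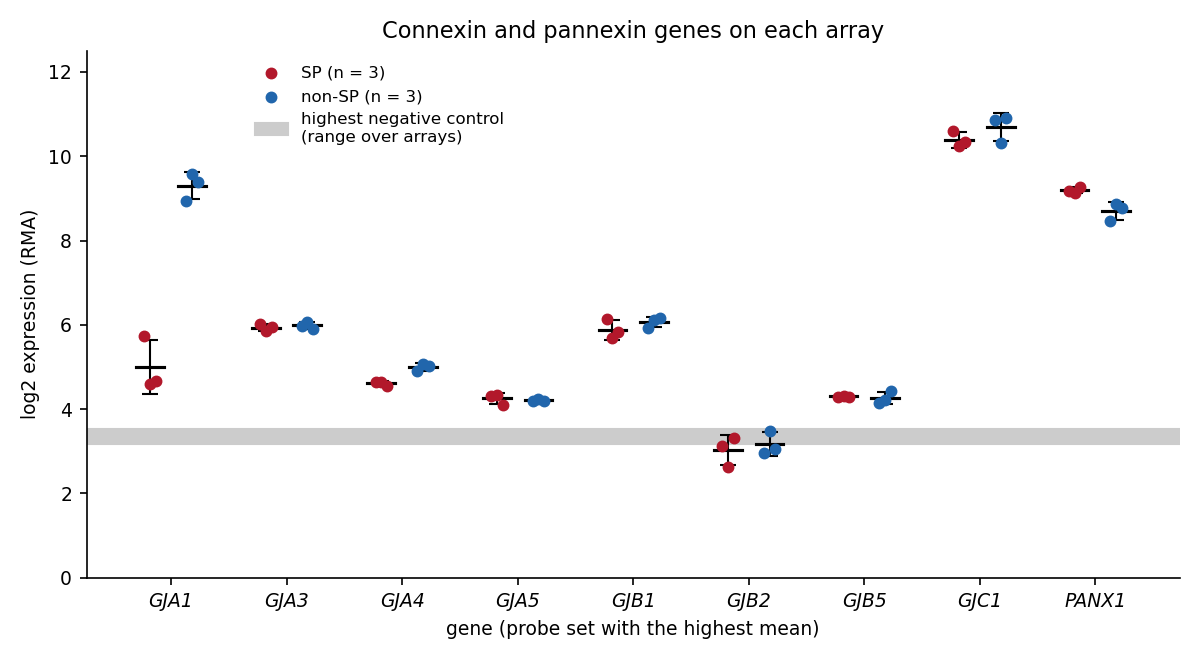
Log2 expression of the 9 members on each array, with SP (red) left of non-SP (blue) for each gene. Points are single arrays, bars are the mean and SD of 3 arrays, and the grey band spans the highest negative control over the 6 arrays. GJA1 averages 5.01 in SP and 9.30 in non-SP cells, while the other members differ by 0.50 or less and GJB2 lies in or below the band.

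None of the 7 other connexin members was higher in SP cells by as much as 2-fold. GJC1, which encodes connexin 45, known from the developing heart and smooth muscle, lay above the third quartile of every array in both groups. Its probe set with the highest mean (208460_at) read 10.59, 10.23 and 10.34 in SP 1, 2 and 3, and 10.85, 10.31 and 10.90 in non-SP 1, 2 and 3. The groups overlapped, and the mean was 10.39 ± 0.19 in SP and 10.69 ± 0.33 in non-SP cells (SD, n = 3 each). The difference was -0.30 (SE 0.20, interval -0.77 to 0.18), and the interval of this probe set reached a rise of 1.13-fold.

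The values of this GJC1 probe set followed the array sets more closely than the groups. All 3 set A arrays lay above all 3 set B arrays, with means of 10.78 and 10.29, and the difference between SP and non-SP was -0.28 within set A and -0.02 within set B. The sets were drawn from the values of these same arrays, which favours a split by set. They did not overlap for 26.9% of all genes, and GJC1 was the 1 member of 9 among them. The part of the ACTB signal in this was not tested. The other 3 GJC1 probe sets gave differences of -0.18, -0.15 and -0.74, all with overlapping groups, and the dimmest of them was above the highest negative control on 4 of 6 arrays. All 4 GJC1 probe sets thus had a difference below 0, with intervals that included 0 and, for 228563_at and 243502_at, rises of 1.67-fold and 1.61-fold. The 3 other probe sets overlapped between the array sets, and within set B they were above 0, at 0.04, 0.84 and 0.48, while within set A they were at -0.31, -0.93 and -1.50.

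GJA4, which encodes connexin 37 of blood vessel endothelium and the oocyte, was slightly lower in SP cells. Its probe set with the highest mean (204904_at) read 4.64, 4.65 and 4.55 in SP cells, and 4.90, 5.08 and 5.02 in non-SP cells. The groups did not overlap, with a difference of -0.39 (SE 0.11), or 1.31-fold lower. Its second probe set read 4.03, 3.94 and 3.98 in SP cells, and 4.08, 4.09 and 4.05 in non-SP cells, again without overlap but with a difference of -0.09 (SE 0.11). GJA4 lay below the median of every array, in the range where the deposited processing compresses differences, and the size of its difference rests on the probe set.

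GJA5 and GJA3 did not separate the groups. GJA5, the gene of connexin 40 of the cardiac atrium and arteries, read 4.32, 4.34 and 4.10 in SP cells, and 4.18, 4.24 and 4.20 in non-SP cells, which gave a difference of 0.05 (SE 0.12, interval -0.23 to 0.33). Its second probe set was below the highest negative control on all 6 arrays. GJA3, the gene of connexin 46 of the lens, read 6.02, 5.84 and 5.95 in SP cells, and 5.96, 6.08 and 5.91 in non-SP cells, which gave a difference of -0.05 (SE 0.11, interval -0.32 to 0.23). That GJA3 probe set carries the array maker's suffix for probes that may cross-hybridise, and the other one was at background on all 6 arrays, so the level of GJA3 RNA in these cells is uncertain.

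The beta connexins were likewise without separation. GJB1, the gene of connexin 32 of hepatocytes and Schwann cells, read 6.14, 5.69 and 5.82 in SP cells, and 5.93, 6.12 and 6.16 in non-SP cells, which gave a difference of -0.18 (SE 0.16, interval -0.56 to 0.19). GJB5, the gene of connexin 31.1 of skin, read 4.30, 4.32 and 4.29 in SP cells, and 4.15, 4.21 and 4.42 in non-SP cells, which gave a difference of 0.05 (SE 0.12, interval -0.24 to 0.33). GJB2, the gene of connexin 26 of the cochlea and many epithelia, read 3.12, 2.63 and 3.32 in SP cells, and 2.97, 3.49 and 3.07 in non-SP cells. Every GJB2 value was at or under the highest negative control of its array, so a difference of GJB2 between the groups was not detectable here.

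PANX1, the widely expressed ATP release channel, was the 1 member that was higher in SP cells without overlap. Its probe set with the highest mean (204715_at) read 9.18, 9.13 and 9.28 in SP 1, 2 and 3, against 8.46, 8.86 and 8.78 in non-SP 1, 2 and 3. The mean was 9.19 ± 0.08 in SP and 8.70 ± 0.21 in non-SP cells (SD, n = 3 each). The difference was 0.50 (SE 0.14, interval 0.15 to 0.84), or 1.41-fold, and 8.38% of all genes had a difference of greater size in either direction. Within set A it was 0.56 and within set B 0.34.

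The other 3 PANX1 probe sets pointed the same way but did not separate the groups. The next brightest (227107_at) read 8.37, 8.55 and 9.01 in SP cells, and 8.21, 8.51 and 8.54 in non-SP cells, which gave a difference of 0.22. The third (235295_at) read 7.83, 8.73 and 8.66 in SP cells, and 6.93, 8.19 and 8.22 in non-SP cells, which gave a difference of 0.63 with an interval of -0.37 to 1.63. The dimmest differed by 0.57. The difference of PANX1 thus lay between 0.22 and 0.63 over its 4 probe sets, which measure the same RNA samples and are not replicates.

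**Figure D2:**
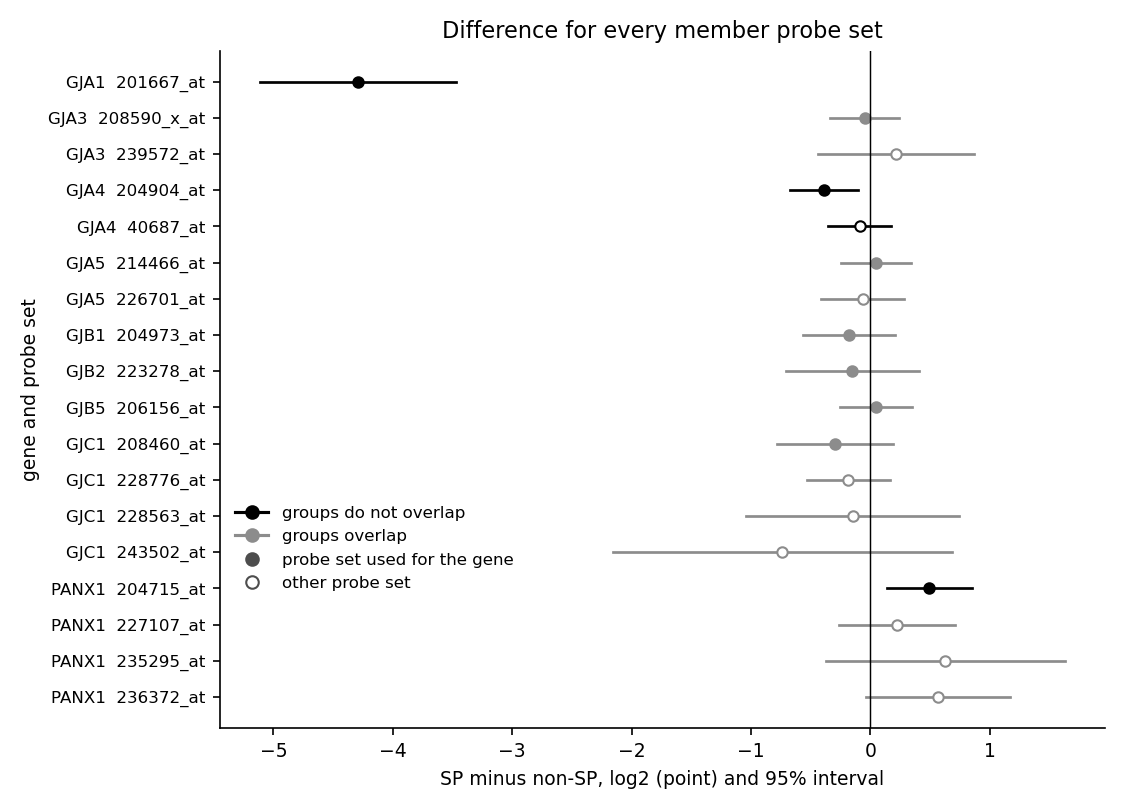
SP minus non-SP difference (log2, horizontal axis) with its 95% interval for all 18 probe sets of the 9 members. Black marks probe sets whose groups do not overlap, and filled points mark the probe set used for the gene. GJA1 stands at -4.29, the 4 PANX1 probe sets lie to the right of 0 and the 4 GJC1 probe sets to the left.

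Counted over the members, 3 of 9 genes had groups that did not overlap, 1 of them higher (PANX1) and 2 lower (GJA1 and GJA4) in SP cells. Over all genes the groups did not overlap for 11.9%, with 4.78% higher and 7.1% lower. A difference of at least 1 log2 unit, or 2-fold, was seen for 1 member that was lower (GJA1) and 0 that were higher, where 0.718% of all genes were lower and 0.673% higher by that much. Since GJA1 was picked for this comparison, nothing is read from these counts about the family. Among the 8 members other than GJA1, 5 had a difference below 0 and 3 above it, and the median was -0.10, against -0.02 over all genes. With 1 probe set per gene, the upper ends of the intervals of the 7 connexins among them reached at most 0.39, or 1.31-fold (GJB2, at background), and that of PANX1 1.79-fold. Other probe sets allowed more: the interval of a GJC1 probe set above background on all 6 arrays (228563_at) reached 1.67-fold, and those of 235295_at and 236372_at of PANX1 reached 3.09-fold and 2.26-fold. Levels of different probe sets cannot be added or ranked on an array, so the total connexin RNA of either group is not given.

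**Figure D3:**
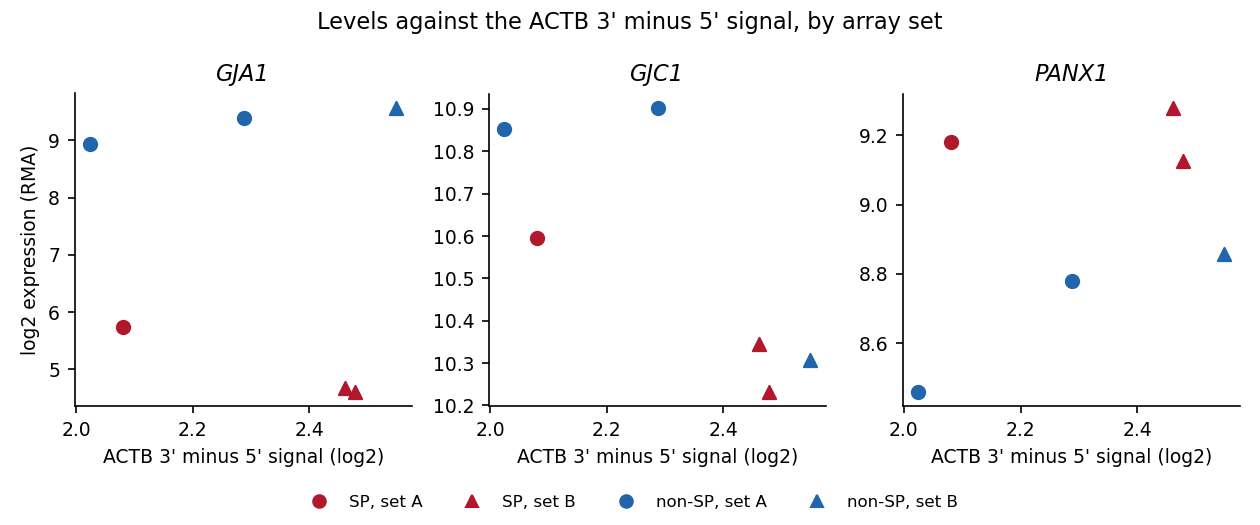
Log2 expression of GJA1, GJC1 and PANX1 (vertical axes, each with its own range) against the ACTB 3' minus 5' signal (log2) of the same array, for SP (red) and non-SP (blue) arrays of set A (circles) and set B (triangles). Each gene is shown by the probe set used for it. GJC1 (208460_at) parts by set, with means of 10.78 in set A and 10.29 in set B, while its other probe sets overlap between the sets. GJA1 and PANX1 part by group over all 6 arrays, so their order within each set is fixed.

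Other genes of the family were examined for one that was higher in SP cells. A further 7 connexin and pannexin genes were measured (GJA10, GJB6, GJD2, GJD3, GJD4, PANX2 and PANX3), and other members of the family were not analysed here. In limma's fit over all genes 0 of the 7 passed an adjusted p of 0.05 in either direction, and 0 passed at an unadjusted p under 0.05. With 1 probe set per gene, their differences ran from -0.12 for GJD3 to 0.08 for PANX3, with a median of 0.00. The groups overlapped for all 7. PANX2, a pannexin known from the brain, read 6.52, 6.17 and 6.31 in SP cells, and 6.24, 6.33 and 6.43 in non-SP cells, which gave a difference of 0.00 (SE 0.14, limma adjusted p = 1.00). The other PANX2 probe sets differed by -0.26 and -0.22, with overlapping groups and values above the highest negative control on all 6 arrays. GJD2, the neuronal connexin gene, differed by 0.01 (SE 0.13), GJD4 by 0.07 (SE 0.11), GJA10 by -0.10 (SE 0.19) and GJB6 by -0.10 (SE 0.18). GJB6 and PANX3 were at background on all 6 arrays and GJA10 on 3 of 6, so these 3 genes bear little on the question. With 1 probe set per gene, no upper end of the 7 intervals exceeded 0.46, or 1.38-fold.

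Genes that act with connexins were described in 5 further lists, and over all 6 lists 0 of 105 measured genes passed limma's adjusted p of 0.05 in either direction. Over all genes 0.00506% passed, which is 1 gene, LINC00518, lower in SP cells. At an unadjusted p under 0.05 there were 7 of the 105 genes (6.67%), against 6.78% of all genes. The groups did not overlap for 9 of the 105 genes (8.57%), against 11.9% of all genes. The median of the 105 differences was 0.02.

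Connexin 43 reaches the membrane through the secretory route, is anchored at the rim of the junction by the scaffold TJP1 (ZO-1), and is taken up and degraded after ubiquitylation. Of 26 measured genes for its trafficking, scaffolding and turnover, 0 passed in either direction, and the median was 0.08. TRIM21, a ubiquitin ligase, read 6.88, 6.72 and 6.56 in SP cells, and 6.25, 6.15 and 6.16 in non-SP cells. Its groups did not overlap, with a difference of 0.53 (SE 0.13, limma adjusted p = 0.480). CCN3, a matricellular protein that binds connexin 43, differed by 0.43 (SE 0.15), also without overlap, TJP3 by -0.66 (SE 0.25) and the caveolin gene CAV1 by 0.55 (SE 0.23).

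Phosphorylation of the connexin 43 tail governs assembly, gating and removal of the channel. Of 15 measured kinases and phosphatases that act on it, 0 passed in either direction, and the median was -0.08. CDK1, the mitotic kinase, read 9.52, 9.36 and 9.43 in SP cells, and 8.37, 8.95 and 9.06 in non-SP cells. Its groups did not overlap, with a difference of 0.64 (SE 0.20, limma adjusted p = 0.612). PRKACB, a catalytic subunit of protein kinase A, differed by -0.34 (SE 0.12), also without overlap, MAPK3 by -0.32 (SE 0.15) and PRKACA by -0.26 (SE 0.15).

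Of 18 transcription factors known to act on GJA1, 0 passed in either direction, 0 had an unadjusted p under 0.05, and the median was 0.04. Only 8 of the 18 lay above the median level of all genes, and the deposited processing narrows differences of dim genes. The AP-1 subunit FOS read 6.64, 5.83 and 5.53 in SP cells, and 7.04, 6.01 and 6.82 in non-SP cells, which gave a difference of -0.63 (SE 0.37, limma adjusted p = 0.850). JUN differed by -0.45 (SE 0.25), with SP 1 at 9.94 within the non-SP range of 9.66 to 9.97. The repressor SNAI1 differed by -0.29 (SE 0.15) and the Wnt effector LEF1 by -0.31 (SE 0.15). The groups overlapped for all 4 genes.

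Cadherins hold the membranes of neighbouring cells together, which gap junction assembly requires. Of 11 measured cadherin and catenin genes, 0 passed in either direction, and the median was -0.05. CDH1, the gene of E-cadherin, read 10.14, 10.72 and 10.73 in SP cells, and 9.16, 10.25 and 9.82 in non-SP cells, which gave a difference of 0.79 (SE 0.31, limma adjusted p = 0.709) with overlapping groups. CDH3 differed by 0.34 (SE 0.16), JUP by 0.22 (SE 0.20) and CDH11 by -0.16 (SE 0.13).

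ATP that leaves through pannexin and connexin hemichannels is read by purinergic receptors. Of 29 measured genes for ATP release and purinergic signalling, 0 passed in either direction, and the median was -0.03. Only 9 of the 29 lay above the median level of all genes, and 24 were above the highest negative control on all 6 arrays. P2RY2, a receptor for ATP and UTP, read 5.30, 5.06 and 5.36 in SP cells, and 6.52, 5.96 and 6.34 in non-SP cells. Its groups did not overlap, and its difference of -1.03 (SE 0.18, limma adjusted p = 0.263) was the 1 of at least 1 log2 unit among the 105 genes. P2RY6, a receptor for UDP, differed by -0.67 (SE 0.32), the anion channel subunit LRRC8A by -0.26 (SE 0.15) and CALHM1 by 0.33 (SE 0.14), the last at 3.71 in SP and 3.38 in non-SP cells and so close to background.

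**Figure D4:**
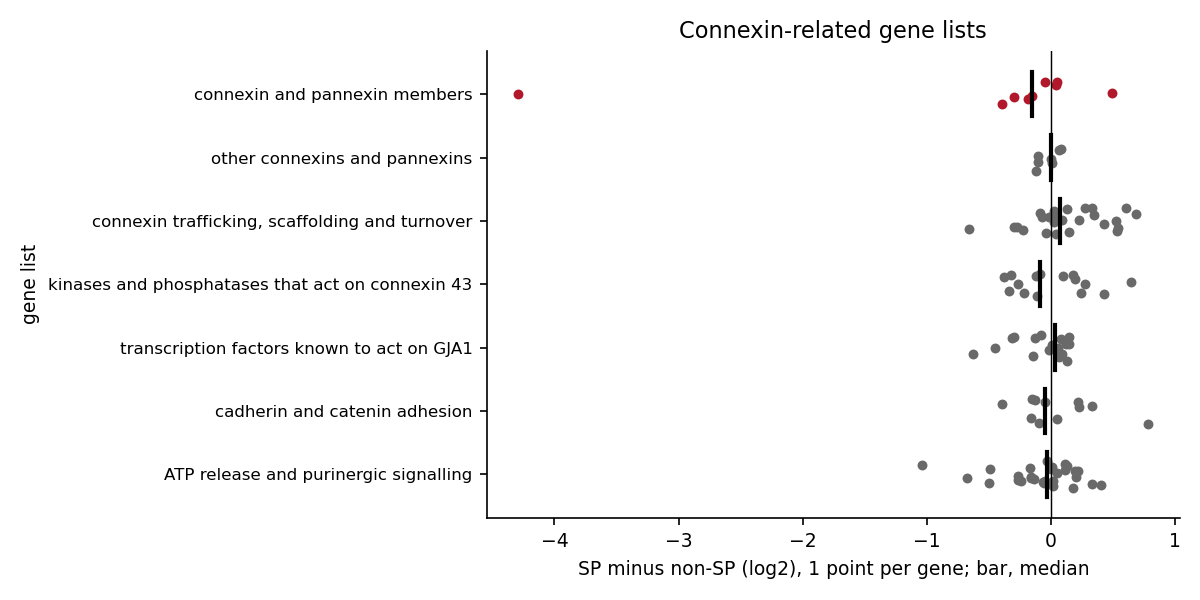
SP minus non-SP difference (log2, horizontal axis) of each measured gene in the members (red) and in the 6 lists of related genes (grey); vertical bars are medians. GJA1 is the member at -4.29, the lowest listed gene is P2RY2 at -1.03, and the list medians lie between -0.08 and 0.08.

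The nearest measured protein-coding genes on either side of GJA1 on chromosome 6, most of which do not adjoin it, showed no difference of its size. The 3 on one side, TBC1D32, MAN1A1 and FAM184A, differed by 0.42 (SE 0.39), 0.06 (SE 0.14) and 0.52 (SE 0.20), and those on the other side, SERINC1, PKIB and FABP7, by -0.04 (SE 0.26), 0.51 (SE 0.42) and -0.18 (SE 0.19). Of these 6, 0 passed limma's adjusted threshold and 1 (FAM184A, higher) had an unadjusted p under 0.05. SERINC1, the brightest neighbour, read 10.18, 10.73 and 10.81 in SP cells, and 10.12, 10.86 and 10.84 in non-SP cells. MAN1A1 and FABP7 were at background on all 6 arrays, so their differences carry little.

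Among 9886 other genes above the median level, those with a pattern most like GJA1 over the 6 arrays were the sodium chloride cotransporter gene SLC12A3 (Pearson r = 0.995), the organic cation transporter gene SLC22A2 (0.991), the electron transfer gene ETFDH (0.989), the creatine transporter gene SLC6A8 (0.987) and ERVFRD-1, an endogenous retroviral envelope gene (0.986). The 6 points share the split into 2 groups, so any gene with well separated groups scores high, and r takes no account of size. SLC12A3 differed by -0.46 (SE 0.11), against -4.29 for GJA1. Of these 5, SLC22A2 was closest in size, at 6.49, 5.90 and 6.12 in SP cells, against 8.12, 8.96 and 8.81 in non-SP cells, and a difference of -2.46 (SE 0.26). Among the members r with GJA1 was 0.967 for GJA4, 0.659 for GJB1, 0.578 for GJC1, 0.442 for GJA3, 0.354 for GJB2, -0.222 for GJA5, -0.229 for GJB5 and -0.836 for PANX1.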

How the data were processed

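The authors deposited 1 table of log2 values, for which the submitters' processing notes name RMA, affy and R 2.8.1; other settings are not given in these sources. RMA adjusts background and gives all arrays 1 distribution, which hides a change in total RNA and narrows differences of dim probe sets. Per the labels' protocols, RNA of sorted cells was amplified from picogram amounts.

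Probe sets were named from the platform annotation: of 54613 that are not controls, 41091 had 1 symbol (41037 matched to RefSeq of GRCh38.p14 by Entrez ID), 1801 several and 11721 none. Per gene, the probe set with the highest mean was used. limma 3.58.1 in R 4.3.3 (lmFit, eBayes, two-sided, no block) was fitted to all 19775 genes with Benjamini-Hochberg adjustment, and intervals are at the 95% level. The code was also run on simulated data with independent noise and no array sets. That run does not show how the fit behaves with the array sets present here. Intervals of single probe sets come from a fit of all probe sets. Python 3.11.15, pandas 2.3.3 and matplotlib 3.10.9 were also used. The number of arrays limits the precision.

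The members and lists were chosen with earlier results of these data known. Named were all members, the 4 genes with the smallest p of each connexin-related list (all measured connexins and pannexins) and of the epithelial markers, the 5 genes most like GJA1 by r and its 3 measured neighbours on each side; LINC00518, PTPRC and SERINC1's reading were picked after their values were seen. In the fit reported, replicate numbers were not used to pair the samples, because they share no stated source. Whether same-numbered samples belong together is not known.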

Additional observations from a re-analysis of the deposited data

How the results depend on the processing

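Over 15 alternatives the GJA1 difference stayed between -4.66 and -4.09, both reached by leaving out 1 sample. Some alternatives could not move it and left it at -4.29. These were averaging probe sets, fitting every probe set, keeping genes above the median level, a change of limma's variance prior and the replicate block. In each of the 15, 0 of the 8 other members were higher by 1 log2 unit or more, and 0 of the listed genes passed. The signs of GJA1, GJA4, GJB1, GJC1 and PANX1 held throughout. For GJA1, GJA4 and PANX1, whose groups do not overlap, leaving out 1 sample could not change the sign. Those of GJA3, GJA5 and GJB5, with sizes near 0, did not hold. Nor did that of GJB2, which was at background and ranged from -0.30 to 0.05. PANX1 ranged from 0.38 to 0.58 and GJC1 from -0.49 to -0.15. In these ranges the fit of every probe set was read only for the probe set used for the gene, so it repeated the reported difference. The other single probe sets ran from 0.22 to 0.63 for PANX1 and from -0.74 to -0.15 for GJC1. With only genes above the median level, 6 dim members were not tested. Averaging the probe sets of each gene, dim ones included, gave -0.24 for GJA4 and 0.08 for GJA3.

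The count of genes past the threshold, 1 in the fit reported, was 0 when probe sets were averaged, 0 with only genes above the median level, 12 with array weights, 5 with the array set as a block and 1 to 2 with 1 sample left out (2 without SP replicate 1). With the replicate block it was 3; the numbers share no stated source, and deviations of same-numbered samples correlated at 0.449, 0.381 and -0.212. For these changes the cause was not tested. The array sets were read from the same values, so p-values from that block may be too small.

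The genes most like GJA1 depend on the measure and the arrays: of the 5, 1 remained by root mean square distance and 1 to 3 with 1 sample left out. By Spearman's rho 11 genes tied at 1, so no 5 could be named. Precision is limited by 3 arrays a group, and for GJB2 and other dim probe sets by background.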
